A study of Mus musculus with 8 samples.

Results

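The cytochrome P450 genes of the mouse olfactory mucosa were described across 8 RNA sequencing libraries. The members were all rows of the deposited gene table whose symbol was Cyp followed by a number, a letter and a number, without pseudogenes marked -ps. This gave 99 of 54982 rows. Of these, 98 were protein-coding genes and 1 was an antisense gene, Cyp4x1os, and 51 had enough reads to be tested. The tissue was dissected olfactory mucosa of mice at postnatal day 30, on a 129S6;C57BL/6J background and labelled male. In all, 4 libraries came from mice labelled ΔTE1+2, with a deletion of the T elements TE1 and TE2, and 4 from controls (ΔTE1+2 WT). TE1 and TE2 are enhancers of the trace amine-associated receptor (Taar) genes, and the study asked what their loss does to RNA in this tissue. The labels number the samples of a group without saying that each is a separate animal, so p-values measure the spread between these samples, which may be in part technical.

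P450 enzymes are membrane-bound heme proteins that use electrons, passed on in the endoplasmic reticulum by the reductase Por, to put oxygen into their substrates. Families 1 to 3 are known mainly for drugs, odorants and other foreign compounds, family 4 for fatty acids, and the higher-numbered families for steroids, bile acids and vitamins. The olfactory mucosa is known for P450 levels that rival those of the liver, held chiefly in sustentacular cells and Bowman's glands, where the enzymes break down inhaled chemicals and can also turn some of them into toxic products.

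The sequences upstream of 4 members are shown because each pair held a contrast in level between close relatives. Cyp2a5, which is known to oxidize coumarin and nicotine, and Cyp2a4, a steroid hydroxylase, shared 98.4% of their coding bases and lie in the same cluster on chromosome 7. Cyp1a1 and Cyp1a2, classical targets of the aryl hydrocarbon receptor, lie beside each other on chromosome 9 on opposite strands. The windows are those of RefSeq in GRCm38.p6, which held 76 of the 99 members. They run from 250 bases before the RefSeq start, and bases inside the GENCODE first exon are left out. Cyp2a5 is chr7:26835089-26835304 on the plus strand, Cyp2a4 is chr7:26306942-26307168 on the plus strand, Cyp1a1 is chr9:57697363-57697612 on the plus strand and Cyp1a2 is chr9:57683704-57683905 on the minus strand. Each is written 5′ to 3′ on the gene's own strand. Capitals mark the bases that differ between Cyp2a5 and Cyp2a4, and, in the Cyp1a pair, GCGTG or its reverse complement CACGC.
Cyp2a5: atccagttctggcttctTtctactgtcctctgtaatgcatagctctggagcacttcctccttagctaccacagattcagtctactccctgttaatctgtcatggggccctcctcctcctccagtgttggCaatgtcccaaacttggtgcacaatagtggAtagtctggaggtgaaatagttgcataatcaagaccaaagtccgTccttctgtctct
Cyp2a4: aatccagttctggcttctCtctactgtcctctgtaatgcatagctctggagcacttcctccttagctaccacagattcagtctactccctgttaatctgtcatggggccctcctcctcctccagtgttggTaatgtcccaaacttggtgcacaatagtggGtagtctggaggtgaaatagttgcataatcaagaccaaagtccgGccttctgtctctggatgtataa
Cyp1a1: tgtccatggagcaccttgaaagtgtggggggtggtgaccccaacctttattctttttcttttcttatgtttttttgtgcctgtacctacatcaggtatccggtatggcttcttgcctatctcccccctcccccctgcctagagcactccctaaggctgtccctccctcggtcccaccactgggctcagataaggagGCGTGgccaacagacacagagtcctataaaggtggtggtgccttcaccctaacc
Cyp1a2: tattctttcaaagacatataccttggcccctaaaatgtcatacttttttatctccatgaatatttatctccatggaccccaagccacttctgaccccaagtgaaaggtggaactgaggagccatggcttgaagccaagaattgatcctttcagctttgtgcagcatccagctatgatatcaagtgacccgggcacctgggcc

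Over the 249 aligned bases before the start, Cyp2a5 and Cyp2a4 differed at 4, an identity of 98.4%. Counted from 1 at the 5′ end of the Cyp2a5 window, with the Cyp2a5 base first, the differences were T18C, C130T, A160G and T204G. C130T falls in a TTGGC that begins 125 bases before the Cyp2a5 start and that the Cyp2a4 window lacks. These letters, searched on both strands, are the core of the binding site of nuclear factor I. They occurred in 63.2% of the 76 member windows and 70.7% of the 41 of tested members, against 45.3% of 27025 windows of all genes with 250 bases before the start. The Cyp1a1 window held GCGTG, the core of the site of the aryl hydrocarbon receptor, once, 54 bases before the start, and the Cyp1a2 window did not hold it. GCGTG occurred in 18.4% of member windows, 31.7% of those of tested members and 30.9% of all windows. TATAAA was found in 38.2% of member windows, 24.4% of those of tested members and 14.3% of all windows, and in all 4 genes shown, in part within the bases left out. These shares describe letters in a window and were not tested. No link of these letters, or of the 4 differing bases, to the level of any gene was tested either.

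Before the results, some features of the libraries matter. Recovered reads per library ran from 31655524 to 50748777, and scaled reads are these reads divided by the size factor of the library. Deletion replicate 3 is labelled male, but it held 15300 scaled reads of Xist, against 4.86 to 86.9 in the other 7 libraries, and 5.69 of the Y-linked gene Ddx3y, against 2716 to 3087, so the values it moves most among the abundant genes are also given without it. Control replicate 3 had reads on 45146 genes, against 31242 to 40965 in the others, and 3208843 scaled reads of Gm10800, a predicted gene, against 1094 to 902935. Control replicate 2 had the lowest summed markers of sustentacular cells (79153 scaled reads, against 117933 to 125676 in the deletion libraries and 107962 to 125052 in the other controls). It was also lowest for the summed markers of mature olfactory neurons (313949, against 377298 to 397479 in the other 7 libraries). Defining markers of the labelled tissue were high, as the neuronal marker Omp had 135973 to 194812 scaled reads, and the sustentacular marker Cbr2 had 43814 to 80313. Liver-defining Alb had at most 18.0 scaled reads in any library.

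Expression was concentrated in very few members. Levels are given as TPM, here recovered reads per base of annotated exon, scaled to the same total in each library. Cyp2a5 averaged 11168 ± 1404 TPM in deletion libraries and 8989 ± 1211 TPM in control libraries (SD, n = 4 each). Cyp2g1, an enzyme long known from the olfactory mucosa, averaged 4451 ± 497 TPM in deletion libraries and 3726 ± 534 TPM in controls. Cyp2f2, known in the airway for activating naphthalene, averaged 1303 ± 159 TPM in deletion libraries and 1102 ± 183 TPM in controls. Cyp1a2, which oxidizes caffeine and aromatic amines, averaged 587 ± 87.5 TPM in deletion libraries and 483 ± 95.9 TPM in controls. These 4 genes held 93.5% of all member reads in deletion libraries and 93.1% in controls, and Cyp2a5 alone held 59.2% in deletion libraries and 58.1% in controls. Control replicate 3, with the most Gm10800 reads, had the lowest TPM of any library for each of these 4 genes. For Cyp2a5 it had 7182 TPM, against 9436 to 9742 TPM in the other controls, while its scaled reads (278454) lay among theirs. On scaled reads, Cyp2a5 averaged 337657 in deletion libraries and 284008 in controls. The part of Gm10800 in the TPM values was not tested.

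The range over 8 libraries of each of these 4 genes lay wholly above that of the next gene in the order, with Cyp2j6 the fifth. Below them, no neighbours among the 20 highest members had ranges that stood apart. Cyp2j6, of a subfamily that oxidizes arachidonic acid, averaged 150 TPM over the 8 libraries, Cyp4b1, a fatty acid hydroxylase that also activates lung toxins, 114 TPM, and Cyp1a1 91.1 TPM. Cyp4v3 (65.8 TPM), Cyp2e1 (49.0 TPM), Cyp20a1 (42.4 TPM), Cyp27a1 (42.1 TPM), Cyp3a13 (40.4 TPM) and Cyp2b10 (40.1 TPM) followed. The remaining 7 of the 20 were Cyp4f15, Cyp39a1, Cyp4a12b, Cyp2s1, Cyp2j12, Cyp4f13 and Cyp2j9, at 34.3 to 10.3 TPM. Of the 99 members, 20 exceeded 10 TPM, 35 exceeded 1 TPM and 64 lay below 1 TPM.

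**Figure D1:**
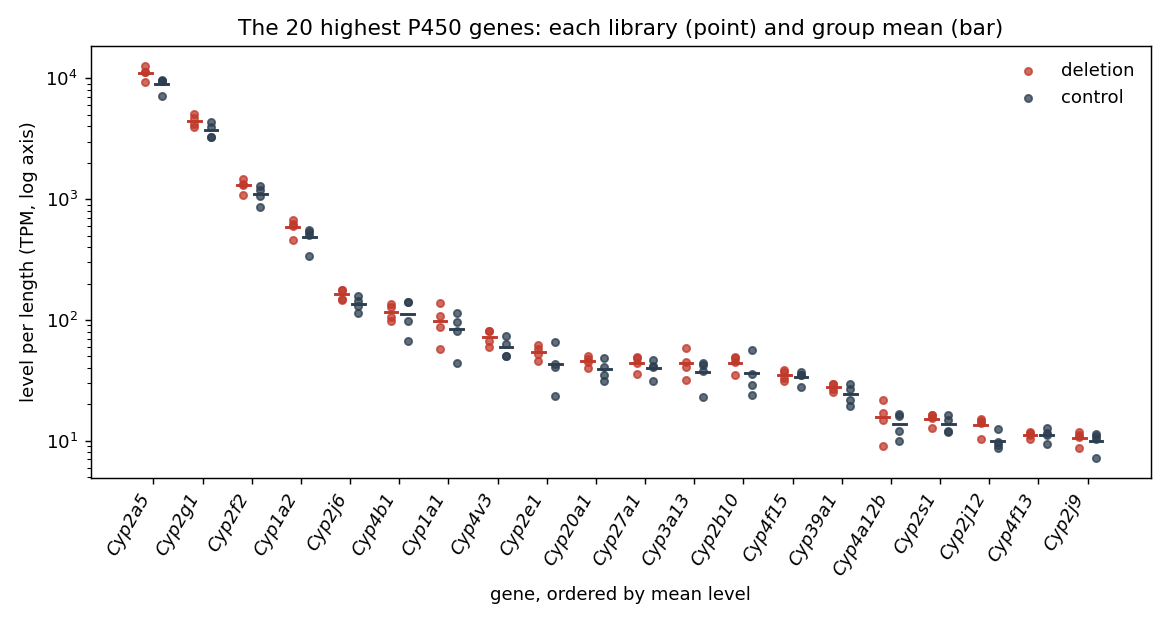
Level per length (TPM, log axis) of the 20 highest P450 genes, with 1 point per library and a bar at each group mean, deletion left of control. Cyp2a5, Cyp2g1, Cyp2f2 and Cyp1a2 form steps that do not overlap, and from Cyp2j6 (150 TPM) down to Cyp2j9 (10.3 TPM) neighbouring genes overlap.

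Levels differed widely within a cluster. The Cyp2 cluster on chromosome 7 (GRCm38 positions 25802475 to 27158668) holds 13 members, Cyp2s1, Cyp2b10, Cyp2b13, Cyp2b9, Cyp2a4, Cyp2b23, Cyp2b19, Cyp2g1, Cyp2a5, Cyp2a22, Cyp2a12, Cyp2f2 and Cyp2t4 in chromosome order, and they summed to 92.2% of all member TPM. Cyp2g1 (ENSMUSG00000049685.8, 26808892 to 26821205) and Cyp2a5 (ENSMUSG00000005547.14, 26835305 to 26843548) are next to each other on the plus strand. Their neighbours on either side were low, with Cyp2b19 at 0.66 TPM and Cyp2a22 at 0.22 TPM. The lowest member of the cluster, Cyp2b23, had 0.12 TPM.

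**Figure D2:**
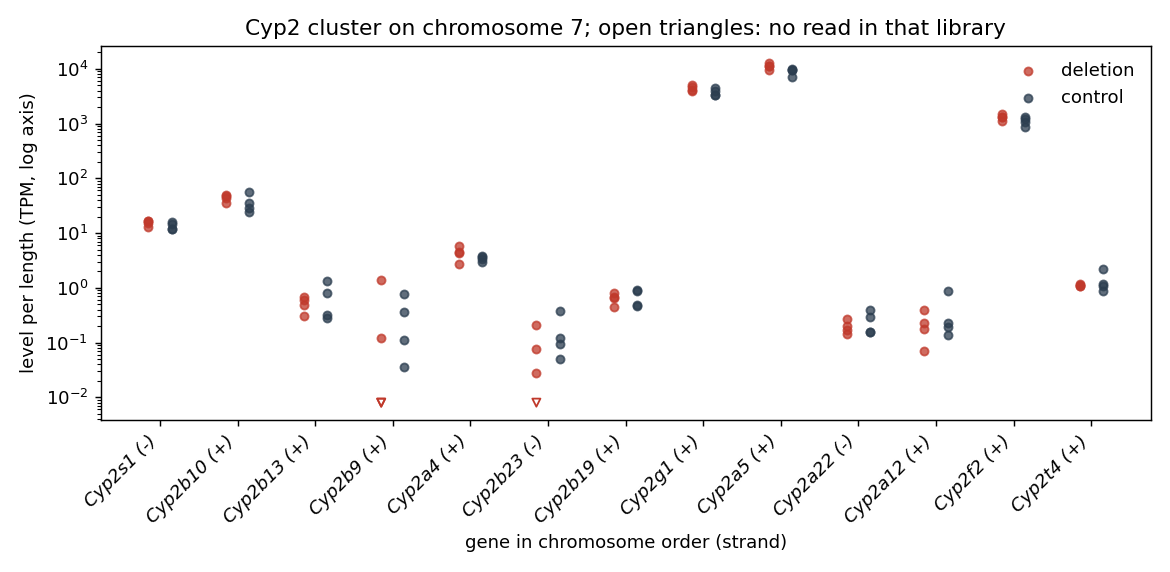
Level per length (TPM, log axis) of the 13 P450 genes of the chromosome 7 cluster in chromosome order, with 1 point per library, deletion left of control, and open triangles where a library had no read. Cyp2g1, Cyp2a5 and Cyp2f2 stand at 865 TPM or more in every library, while their neighbours Cyp2b19, Cyp2a22 and Cyp2a12 stay below 1 TPM and Cyp2t4, beside Cyp2f2, lies at 0.89 to 2.19 TPM.

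Near-identical pairs also differed widely in level. The ratio of Cyp2a5 to Cyp2a4 per length was 2630, 4199, 2798 and 1640 in deletion replicates 1 to 4, against 3296, 2449, 2158 and 2664 in control replicates 1 to 4. Cyp2a5 was far above Cyp2a4 in every library, and the groups overlapped. With 98.4% shared coding bases, a small share of Cyp2a5 reads assigned to Cyp2a4 could make up much of the Cyp2a4 count, so its 3.87 TPM is uncertain. Cyp4a12b stood above its 98.5% identical neighbour Cyp4a12a by 77.0-, 61.9-, 66.0- and 16.4-fold in deletion replicates 1 to 4, against 268-, 147-, 19.3- and 22.6-fold in control replicates 1 to 4. Cyp4a12a had 1.62 to 25.6 scaled reads, so this ratio rests on few reads. In all, 37 of 98 coding members shared at least 90% of coding bases with another member, but 11 of these 37 were among the 51 tested.

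Other Cyp2, Cyp3 and Cyp4 clusters were lower. The 14 members of the Cyp2c cluster on chromosome 19 summed to 2.04 TPM, the 8 of the Cyp2d cluster on chromosome 15 to 3.10 TPM, and the 8 of the Cyp3a cluster on chromosome 5 to 1.16 TPM. The 8 Cyp2j genes on chromosome 4 summed to 173 TPM, of which Cyp2j6 gave 150. On chromosome 17, the 8 Cyp4f genes summed to 66.7 TPM and 7 of them were tested, the highest being Cyp4f15.

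The deletion and control groups were compared with limma on log2(scaled reads + 1). No member passed an adjusted p of 0.05 (0 of 51 tested), where 16 of 21974 genes did so overall (0.0728%). The lowest adjusted p of a member was 0.869 (limma, Benjamini-Hochberg over 21974 genes). At an unadjusted p under 0.05, limma had 2 of 51 members, against 3.5% of all genes. Of these, 1 was higher in deletion libraries (1 of 51, against 1.58% of all genes) and 1 was lower (1 of 51, against 1.92%). The edgeR quasi-likelihood test likewise called 0 members, with 1 at an unadjusted p under 0.05 (4.15% of all genes), and DESeq2 called 0, with 3 (3.98% of all genes). In the authors' deposited table, 63 members had an adjusted p, 0 of them under 0.05, with a lowest value of 0.923, where 20 of 28161 genes (0.071%) passed. In bulk tissue, fewer cells of a type and less RNA per cell cannot be told apart.

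The intervals bound how large a change these libraries leave room for. The 95% limma interval lay within a 1.5-fold change either way for 22 of 51 tested members, against 62.0% of all genes. Among the 16 members with a mean of at least 1000 scaled reads it did so for 11, against 95.6% of 7680 genes of that abundance. The median log2 fold change, deletion minus control, was 0.03 over the tested members and 0.02 over all tested genes, and members ran from -0.57 (Cyp2a12) to 0.36 (Cyp4a12a). Both ends rest on few reads. Cyp2a12 had 46 reads in deletion libraries and 74 in controls, 43 of them in control replicate 3, and Cyp4a12a had 50 in each group. Above 1000 scaled reads, 15 of 16 members had a fold change above 0, against 77.2% of all genes so abundant, with medians of 0.18 and 0.06. Below it, 12 of 35 did, with a median of -0.11 against -0.04 for all such genes. Over all tested genes, 11944 of 21974 had a fold change above 0, and 5930 of these were among the 7680 abundant ones. None of the members passed the adjusted threshold.

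**Figure D3:**
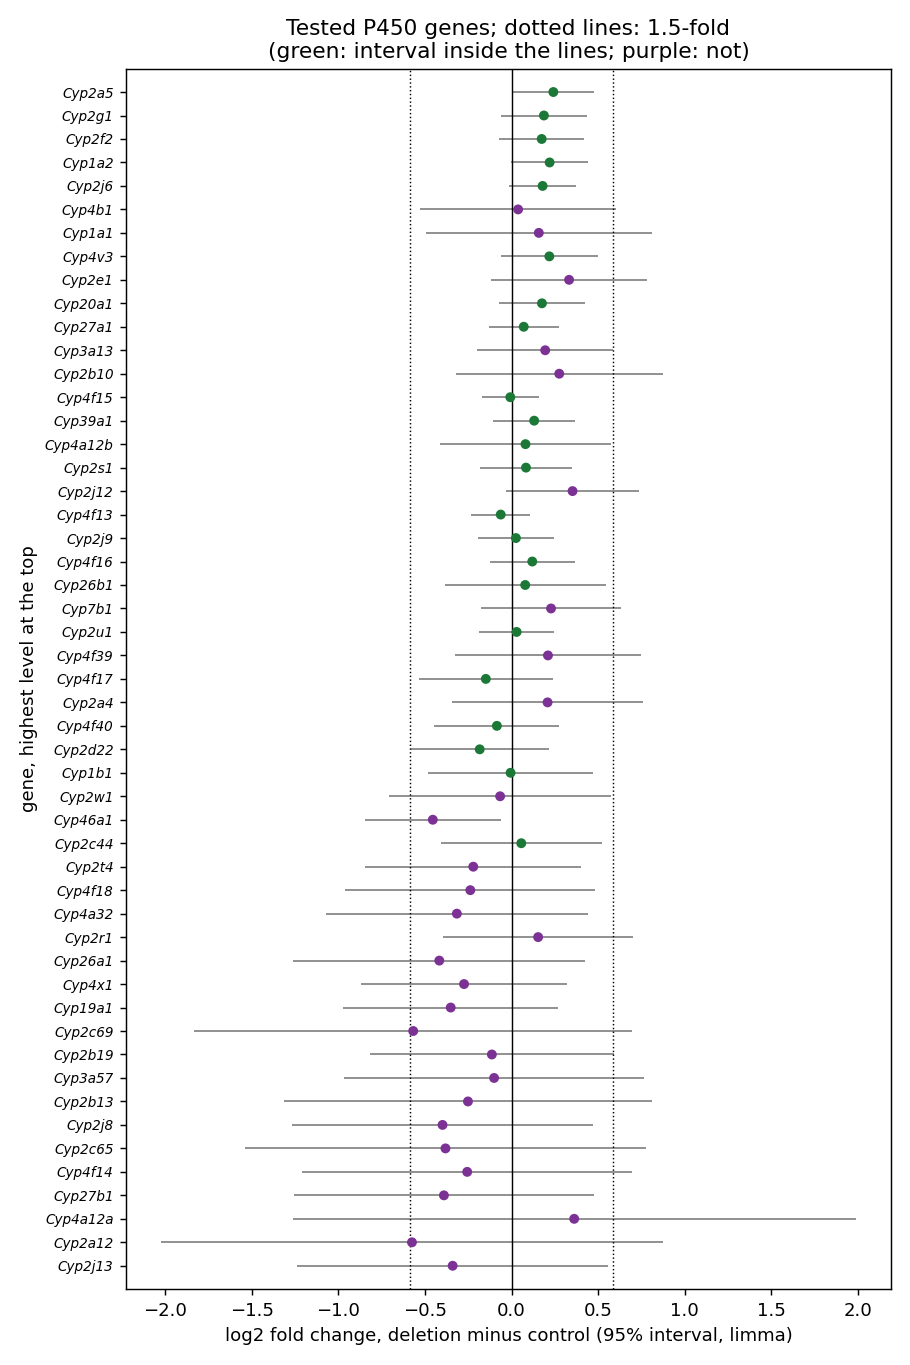
Log2 fold change (deletion minus control) of the 51 tested P450 genes with 95% limma intervals, the highest level at the top. Dotted lines mark a 1.5-fold change, and the 22 green points have intervals inside them. The abundant genes lie mostly right of 0, the scarce genes have wide intervals, and no gene passed the adjusted threshold.

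Among the enzymes of foreign compounds, 27 of 59 members were tested and 0 were called. Cyp2a5 had 322700, 314355, 408042 and 305532 scaled reads in deletion replicates 1 to 4, against 299326, 264558, 278454 and 293694 in control replicates 1 to 4. Every deletion library was above every control, and deletion replicate 3 was far above the other deletion libraries. The log2 fold change was 0.24 ± 0.11 (SE, n = 4 each; limma 95% interval 0.01 to 0.47), with an unadjusted p of 0.0437 and an adjusted p of 0.869. On scaled reads, Cyp2a5 was the one tested member whose groups stood apart upwards (1 of 51), against 0.983% of all genes. On TPM its groups overlapped. There, deletion replicate 4 (9348 TPM) lay below control replicates 1, 2 and 4 (9742, 9436 and 9597 TPM). Without deletion replicate 3, the log2 fold change of Cyp2a5 was 0.15.

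Cyp2g1 had 138756, 144737, 137445 and 133235 scaled reads in deletion replicates 1 to 4, against 138960, 95502, 131694 and 125316 in control replicates 1 to 4. Control replicate 2 stood low and control replicate 1 lay among the deletion libraries. The log2 fold change was 0.19 ± 0.11 (SE) by limma with an adjusted p of 0.869, and it was 0.07 without control replicate 2. Cyp2f2 had 37459, 35557, 46047 and 34790 scaled reads in the deletion libraries, against 35590, 29256, 32755 and 38598 in the controls. Deletion replicate 3 was again the highest, the groups overlapped, and the log2 fold change was 0.17 ± 0.11 (SE, adjusted p 0.869 by limma). It was 0.08 without deletion replicate 3 and 0.10 without control replicate 2. Part of the Cyp2f2 exons (13.5% of bases) overlaps the antisense gene Gm15883, and the sources used here do not give the strand setting of the counting. Cyp4v3 also shares 8.2% of its exon bases with Gm45753, on the same strand. Cyp2s1 shares 5.3% with Gm26707 and Cyp2a4 3.5% with Gm42375, both on the opposite strand.

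The Cyp1a pair was set against each other per length within libraries. Cyp1a2 had 17285, 17995, 18540 and 14704 scaled reads in deletion replicates 1 to 4, against 15821, 13830, 12852 and 16385 in control replicates 1 to 4. Its log2 fold change was 0.22 ± 0.10 (SE, limma unadjusted p 0.0508, adjusted p 0.869), and deletion replicate 4 lay among the controls. Without deletion replicate 3 it was 0.18. Cyp1a1 had 3407, 4013, 5969 and 2530 scaled reads in the deletion libraries, against 3957, 4335, 2313 and 3362 in the controls. Cyp1a1 varied more among replicates of a group (coefficients of variation of 36.7% in deletion and 25.3% in control libraries) than Cyp1a2 (9.91% and 11.3%). The Cyp1a2 to Cyp1a1 ratio ran from 4.30 to 8.05 in deletion libraries and from 4.42 to 7.69 in controls, so Cyp1a2 was higher in each of the 8 libraries and the groups overlapped fully. The log2 fold change of Cyp1a1 was 0.16 ± 0.28 (SE, limma adjusted p 0.906), and it was -0.06 without deletion replicate 3.

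**Figure D4:**
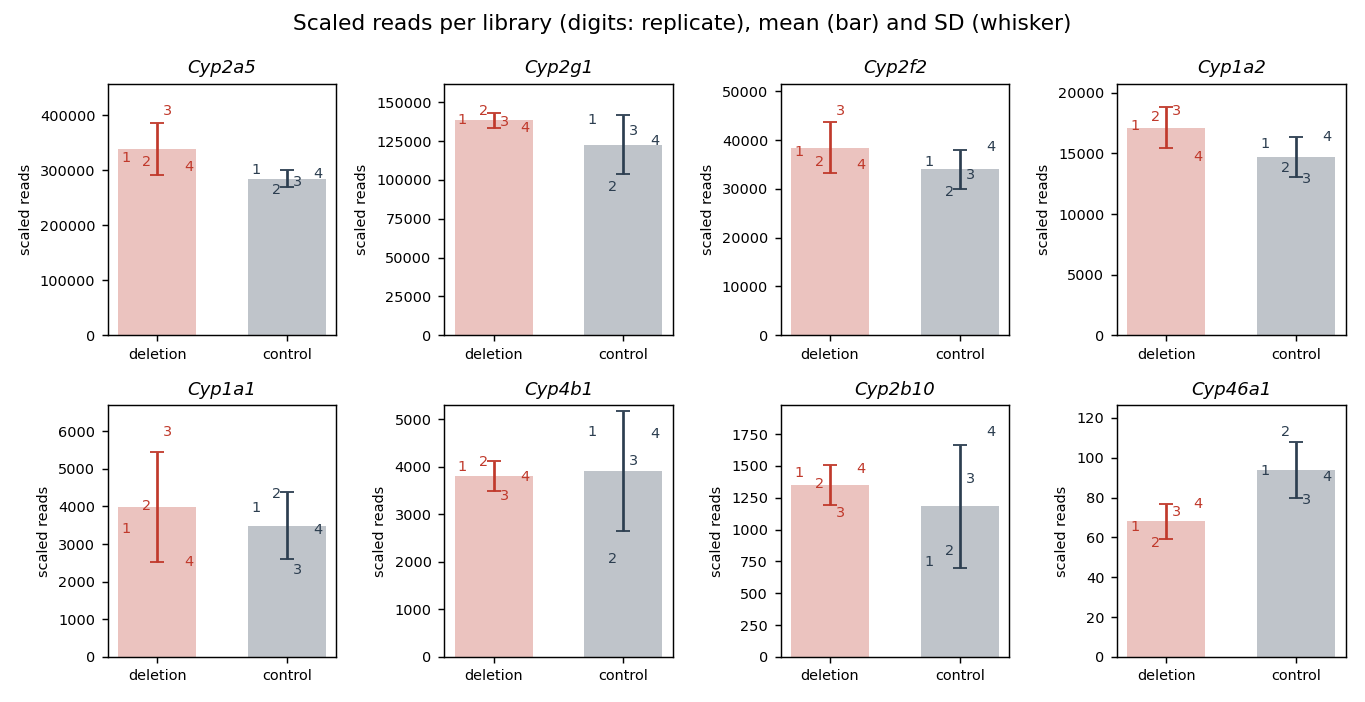
Scaled reads of 8 P450 genes in each library (digits give the replicate), with bars at the group mean and whiskers of 1 SD, deletion left of control. Deletion replicate 3 is the highest for Cyp2a5, Cyp2f2, Cyp1a2 and Cyp1a1, control replicate 2 is the lowest for Cyp2a5, Cyp2g1, Cyp2f2 and Cyp4b1, and the groups stand apart for Cyp2a5 and Cyp46a1.

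Cyp2j6, Cyp2j12 and Cyp2e1 did not pass the test either. Cyp2j6 had 8239 to 8909 scaled reads in deletion libraries, against 6322 to 8423 in controls (log2 fold change 0.18 ± 0.09 SE, limma unadjusted p 0.068, adjusted p 0.869, and 0.10 without control replicate 2). Cyp2j12 of the same cluster had 277 to 436 in deletion libraries, against 230 to 359 in controls (0.35 ± 0.18 SE, unadjusted p 0.0704, adjusted p 0.869 by limma, and 0.23 without control replicate 2). Cyp2e1, which oxidizes ethanol and acetone, had 1561 to 1901 scaled reads in deletion libraries, within the 956 to 2098 of the controls. Its log2 fold change, 0.33 ± 0.20 (SE, limma adjusted p 0.869), was the highest of the 16 members with a mean of at least 1000 scaled reads. It was 0.17 without control replicate 3 and 0.54 without control replicate 4.

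Cyp2b10, the classical phenobarbital-induced P450 of mouse liver, spread widely among the controls. It had 1445, 1355, 1130 and 1479 scaled reads in deletion replicates 1 to 4, against 746, 829, 1396 and 1764 in control replicates 1 to 4. Control replicates 1 and 2 lay below all the deletion libraries, control replicate 4 above them, and the log2 fold change was 0.28 ± 0.26 (SE, limma adjusted p 0.869). It was 0.08 without control replicate 1, 0.13 without control replicate 2 and 0.50 without control replicate 4. Cyp2b9, an untested gene of the same cluster known in mice for a higher level in female liver, had 0, 0, 39.8 and 3.65 scaled reads in the deletion libraries, against 21.1, 2.77, 12.9 and 0.98 in the controls. The highest value was that of deletion replicate 3, the library with the high Xist level, but control replicates 1 and 3 also had reads.

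The remaining named members of these families also overlapped between groups. Cyp3a13, the main Cyp3a gene here, had 1497 to 2675 scaled reads in deletion libraries, against 1283 to 1864 in controls, with deletion replicate 3 the highest. Its log2 fold change was 0.19 ± 0.18 (SE, limma adjusted p 0.869), and it was 0.02 without deletion replicate 3 and 0.08 without control replicate 3. Cyp2s1, an enzyme of epithelia, had 989 to 1172 in deletion libraries, against 783 to 1180 in controls, with control replicate 2 the lowest. Cyp2d22, the one Cyp2d gene that was tested, had 102 to 174 in deletion libraries, against 139 to 191 in controls (log2 fold change -0.18 ± 0.18 SE, limma adjusted p 0.869, and -0.30 to -0.04 with single libraries left out).

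In family 4, 14 of 21 members were tested, 0 were called and the median log2 fold change was -0.03. Cyp4b1 had 4001, 4088, 3378 and 3781 scaled reads in deletion replicates 1 to 4, against 4722, 2054, 4128 and 4697 in control replicates 1 to 4. Apart from control replicate 2, with the fewest reads of all, the controls lay above every deletion library. Its log2 fold change was 0.04 ± 0.25 (SE, limma adjusted p 0.973) and turned to -0.25 without control replicate 2. Cyp4v3, the mouse counterpart of the human fatty acid hydroxylase CYP4V2, had 3527 to 4275 scaled reads in deletion libraries, against 2589 to 4157 in controls (0.22 ± 0.13 SE, limma adjusted p 0.869, and 0.08 without control replicate 2). Cyp4f15 and Cyp4f13, of a subfamily that inactivates leukotrienes, varied little. Cyp4f15 had 1129 to 1179 scaled reads in deletion libraries, against 1070 to 1254 in controls, and Cyp4f13 had 688 to 758 in deletion libraries, against 733 to 777 in controls. Their 95% limma intervals of the log2 fold change, -0.17 to 0.16 and -0.23 to 0.11, were the narrowest of the 51 tested members.

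Among the steroid, sterol and bile acid enzymes, 5 of 12 members were tested and 0 were called. Cyp46a1, the cholesterol hydroxylase of neurons, had 65.0, 57.3, 73.0 and 76.7 scaled reads in deletion replicates 1 to 4, against 93.1, 113, 78.6 and 90.5 in control replicates 1 to 4. On scaled reads, every deletion library was below every control, though deletion replicate 4 and control replicate 3 nearly met. On TPM the groups overlapped, as control replicate 3 (1.28 TPM) lay below every deletion library (1.30 to 1.48 TPM). The log2 fold change was -0.45 ± 0.18 (SE, limma 95% interval -0.85 to -0.06), with an unadjusted p of 0.027 and an adjusted p of 0.869. On scaled reads, Cyp46a1 was the one tested member whose groups stood apart downwards (1 of 51), against 1.22% of all genes. On that scale 2 of 51 members stood apart in either direction, against 2.2%.

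Cyp39a1, which hydroxylates the product of Cyp46a1, had 1208 to 1257 scaled reads in deletion libraries, within the 900.2 to 1325 of the controls (log2 fold change 0.13 ± 0.11 SE, limma adjusted p 0.869, and 0.02 without control replicate 2 or 0.21 without control replicate 1). Cyp27a1, the mitochondrial enzyme that oxidizes the sterol side chain, had 1212 to 1472 in deletion libraries, against 1225 to 1498 in controls (0.07 ± 0.09 SE, limma adjusted p 0.883, and 0.03 to 0.14 with single libraries left out). Cyp7b1, an oxysterol hydroxylase, had 153 to 233 in deletion libraries, against 141 to 221 in controls. Cyp19a1, the aromatase that makes estrogens, had 27.5 to 50.2 in deletion libraries, against 41.3 to 83.7 in controls. The 7 that were not tested were Cyp11a1, Cyp11b1, Cyp11b2, Cyp17a1 and Cyp21a1, which make steroid hormones, and Cyp7a1 and Cyp8b1, which make bile acids in the liver.

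Of the vitamin A and vitamin D enzymes, 4 of 6 were tested and 0 were called. Cyp26b1, which breaks down retinoic acid, had 458 to 577 scaled reads in deletion libraries, inside the wider 343 to 676 of the controls. Cyp26a1, its relative, had 9.48 to 27.5 in deletion libraries, against 17.7 to 37.3 in controls, and Cyp2r1, the vitamin D hydroxylase best known in liver, had 23.7 to 29.2 in deletion libraries, against 19.7 to 28.7 in controls. Cyp27b1, which activates vitamin D, had 8.81 to 18.3 in deletion libraries, against 8.85 to 27.0 in controls. Cyp20a1, whose substrate is not established, was in no group and had 1437 to 1581 scaled reads in deletion libraries, against 1076 to 1647 in controls (log2 fold change 0.18 ± 0.11 SE, limma adjusted p 0.869, and 0.07 without control replicate 2 or 0.27 without control replicate 1).

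The 48 untested members had means of 0.99 to 13.5 scaled reads, and 41 of them had 0 reads in at least 1 library. They included 12 of 15 Cyp2c, 7 of 8 Cyp2d, 7 of 9 Cyp3a and 5 of 8 Cyp4a genes, subfamilies known for high levels in liver or kidney. Control replicate 3 held more of their reads than any other library. It had the highest value of 46 of the 48 (95.8%), had reads on all 99 members, and summed to 658 scaled reads over the untested members. The deletion libraries summed to 55.2, 41.8, 82.5 and 201, and the other 3 controls to 54.3, 122.9 and 96.4. Control replicate 3 was also the library with the most Gm10800 reads and the most genes with a read, and deletion replicate 4, second on both counts, had reads on 96 members. The part of these features in the low values was not tested, and the low values were not read as expression in the tissue.

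Summed over all members, P450 RNA took 13651, 13740, 15532 and 13106 CPM (read counts scaled to the library total) in deletion replicates 1 to 4, against 12813, 11589, 11990 and 12812 in control replicates 1 to 4. Every deletion library was above every control, with means of 14007 ± 1054 CPM in deletion libraries and 12301 ± 613 CPM in controls (SD, n = 4 each), a difference of 13.9%. It was 9.74% without deletion replicate 3, 11.7% without control replicate 2, 10.4% without Cyp2a5 and 16.1% on scaled reads. In the last 2 of these the groups overlapped. Without Cyp2a5, deletion replicate 4 (5440.7 CPM) lay below control replicates 1 (5530.6 CPM) and 4 (5440.9 CPM). On scaled reads, deletion replicate 4 (522405) lay below control replicate 1 (526662). As the sum is led by Cyp2a5 and the members were not fixed independently of these data, no p is given.

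The spread within groups was also compared, as a description. The median coefficient of variation of the 16 members with a mean of at least 1000 scaled reads was 8.49% in deletion libraries and 15.6% in controls, against 5.94% and 10.1% for all genes so abundant. Control replicate 2 had the lowest value for 10 of the 16 (62.5%), as it did for 47.8% of all genes so abundant. Deletion replicate 3 had the highest value for 14 of the 51 tested members (27.5%), against 15.1% of all tested genes.

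**Figure D5:**
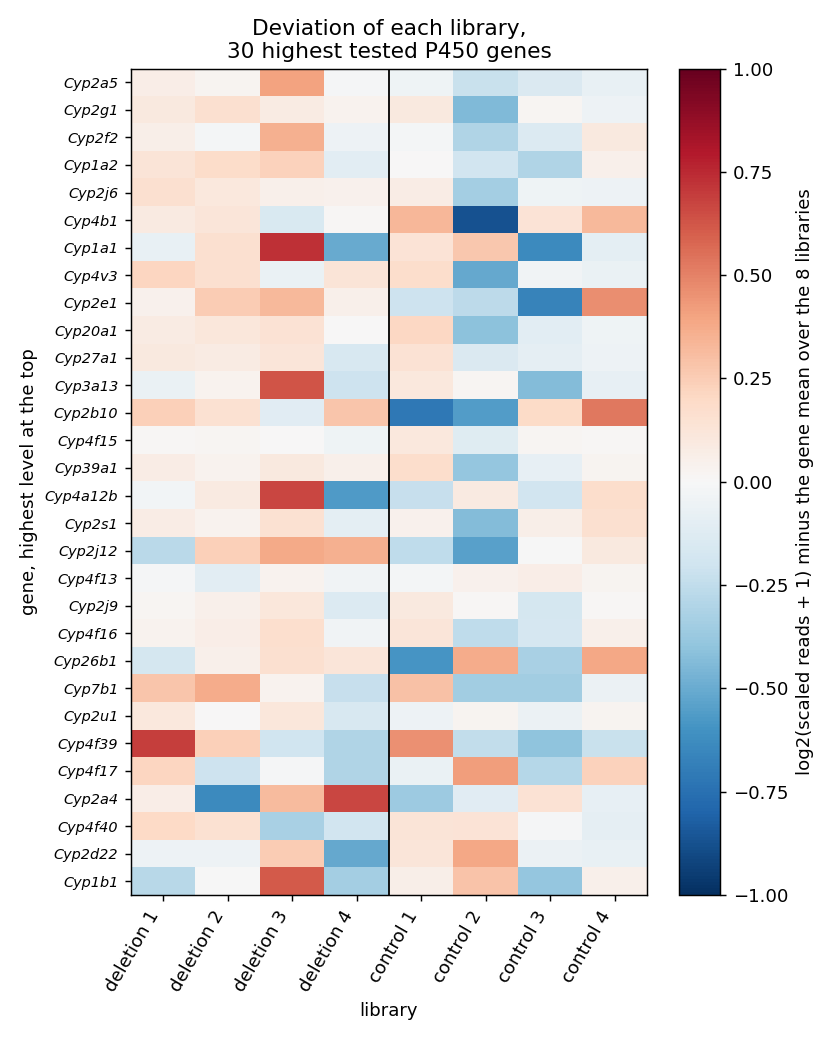
Deviation of each library (columns, deletion 1 to 4 left of control 1 to 4) from the mean of the gene, in log2(scaled reads + 1), for the 30 tested P450 genes with the highest level (rows). The column of control replicate 2 is blue for most of the abundant genes, and that of deletion replicate 3 is red for Cyp2a5, Cyp2f2, Cyp1a1, Cyp3a13 and Cyp4a12b.

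The partner genes of the P450 system did not pass the test either. Of the 7 electron donors, 0 were called and all 7 had fold changes above 0, with a median of 0.09. Fold changes above 0 were also seen for 54.4% of all tested genes. Among genes with a mean of at least 1000 scaled reads the share was 77.2%, with a median of 0.06. Por, the reductase that feeds the microsomal P450 enzymes, had 34012, 32037, 33246 and 29366 scaled reads in deletion replicates 1 to 4, against 29711, 26026, 27243 and 33370 in control replicates 1 to 4 (log2 fold change 0.15 ± 0.09 SE, limma adjusted p 0.869). Of 10 genes of heme synthesis and breakdown, 0 were called, with a median of 0.10. Of 12 receptors and factors that control P450 genes, 10 were tested and 0 were called, with a median of 0.03, while Hnf4a and Nr1i3 had too few reads.

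Among the other enzymes of foreign compounds, 0 of 15 oxidation and hydrolysis enzymes and 0 of 10 tested conjugating enzymes were called. Their medians were 0.19 and 0.14, against 0.02 over all tested genes and 0.06 over those with a mean of at least 1000 scaled reads. Gsta4, a glutathione transferase for products of lipid peroxidation, had 6383, 5738, 6353 and 5234 scaled reads in deletion replicates 1 to 4, against 5723, 4068, 4740 and 5226 in control replicates 1 to 4. Its groups overlapped, with a log2 fold change of 0.27 ± 0.11 (SE, limma unadjusted p 0.0287, adjusted p 0.869). Of the P450 genes whose symbols do not match the naming pattern, Cyp51, Tbxas1 and Ptgis were tested and 0 were called.

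Markers of cells that could carry P450 RNA were set beside these values. For the counts above 0 that follow, the share was 54.4% of all tested genes and 77.2% of those with a mean of at least 1000 scaled reads. Of 7 sustentacular markers, 6 had fold changes above 0, with a median of 0.22 and 0 called. Summed respiratory markers were 436632 to 462599 scaled reads in deletion libraries, against 252142 to 419506 in controls, with control replicate 2 the lowest. All 6 tested markers were above 0, with a median of 0.35 and 0 called. On scaled reads, the groups stood apart upwards for 3 of these 6, against 0.983% of all genes, and downwards for 0, against 1.22%. Of the respiratory markers, Bpifa1, a secreted airway protein, had a log2 fold change of 0.43 ± 0.17 (SE, limma unadjusted p 0.0288, adjusted p 0.869), and Reg3g, an antibacterial lectin, 0.65 ± 0.26 (SE, limma unadjusted p 0.0378, adjusted p 0.869). Mature neuron markers had a median of 0.07, and 0 of 7 were called. Summed Bowman gland markers were 98653 in deletion replicate 3, against 17381 to 41478 in the other deletion libraries and 15735 to 46853 in controls. Of these 4 markers, 2 had fold changes above 0 and 2 below, with 0 called. Summed nasal gland markers ran from 82317 to 460748 in deletion libraries and from 54954 to 351382 in controls. All 4 nasal gland markers had fold changes below 0, with a median of -0.17 and 0 called. Of 3 macrophage markers, all had fold changes above 0 and 0 were called. C1qa, a complement subunit, had the smallest p (log2 fold change 0.28 ± 0.10 SE, limma unadjusted p 0.0168, adjusted p 0.869). Endothelial and ensheathing glia markers had medians of 0.20 and 0.09, with 0 called. The part of cell makeup in the P450 values was not tested.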

How the data were processed

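Per the labels' protocols, 1 ug of total RNA (Qiagen RNeasy) went into ribosome-depleted Illumina TruSeq Stranded Total RNA libraries, which keep unspliced RNA. The submitters' processing notes name STAR 2.6.0, DESeq2 and GRCm38.p6. How reads were counted, with which strand setting and with what handling of reads that match several places, is not stated in these sources. The deposited value per library is a signal, the gene's read count over a size factor: 100% of non-zero values were whole multiples of the smallest within 0.001, which gave back whole reads. The authors' deposited comparison gives a log2 fold change (positive where the control is higher), its p-value, and a test statistic, a score that was not used here.

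Deletion columns are abbreviated differently from the titles and were matched by replicate number. GENCODE M21 held all 99 members by Ensembl identifier and gave the exon lengths behind TPM. As the deposited values are scaled, limma 3.58.1 (R 4.3.3, trend and robust) on log2(scaled reads + 1) took the place of a count test. This scale understates changes of genes with few reads. The filter was filterByExpr of edgeR 4.0.16 at a minimum count of 10, and p-values were adjusted by Benjamini-Hochberg at 0.05. Alternatives were edgeR's quasi-likelihood test on recovered reads, DESeq2 1.42.0, other scalings, pseudocounts and filters, and leaving out each library. The fit was tested on simulated data. That simulation drew each gene apart, so it says nothing of shifts shared by many genes of a library.

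The members and lists were chosen with earlier results of these data known. Named members are the 20 highest per length, the 4 smallest p in each direction, those with a library far from its group (mean of at least 50 scaled reads) and the tested vitamin and steroid enzymes. Cyp2a4, Cyp2a12, Cyp2b9, Cyp4a12a, the lesser genes of the chromosome 7 cluster and Gm10800 were chosen after their values were seen.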

Additional observations from a re-analysis of the deposited data

Results flagged for a closer look

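Over 66 groups of 4 libraries (members with a group mean of at least 50 scaled reads), 4 held a library whose gap to the nearest other exceeded Dixon's 95% critical value, and chance flags about 1 in 20 such groups. Cyp2a5 had 408000 scaled reads in deletion replicate 3, against 305500 to 322700 in the other 3 deletion libraries. Cyp27a1 had 1212 in deletion replicate 4, against 1432 to 1472 in the others. Cyp4f39 had 229.2 in control replicate 1, where the other controls held 126.2 to 142.6. Cyp2c44 had 66.97 in control replicate 3, where the other controls held 43.44 to 46.98.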

How the results depend on the processing

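In every fit that was run, 0 members were called. All genes called were 16 by edgeR, 23 by DESeq2, 15 with library totals, 13 against a 1.5-fold change and 10 with a mean of at least 50 scaled reads. Leaving out single libraries gave 13 to 31, the highest without deletion replicate 4. The median log2 fold change of members was -0.27 over 99 members with no filter and 0.13 over the 32 with a mean of at least 50 scaled reads, since the filter sets which members enter. It ran from -0.01 to 0.05 with single libraries left out, and the members bounded within 1.5-fold from 17 to 21. The summed CPM difference ran from 9.74% to 16.3%, and was 11.0% with Gm10800, Gm10801 and Gm21738 taken out of the library totals, an alternative chosen after seeing the data. Of 450 comparisons of 30 named members, 15 reversed sign and 0 passed the threshold. Some of the 450 could not reverse, as dropping trend and robust, or adding replicate number as a block, leaves the log2 fold change unchanged. Cyp4b1 turned to -0.047 with edgeR and -0.033 with DESeq2, and Cyp2j9 to -0.0038 with library totals. With single libraries left out, ranges that crossed 0 were -0.049 to 0.027 for Cyp4f15, -0.10 to 0.22 for Cyp26b1, -0.25 to 0.15 for Cyp4b1, -0.047 to 0.15 for Cyp2s1, -0.0061 to 0.20 for Cyp2c44, -0.061 to 0.35 for Cyp1a1, -0.028 to 0.074 for Cyp2j9 and -0.13 to 0.28 for Cyp4a12b. The causes were not tested. The labels give no pairing of the libraries. Between libraries of equal replicate number, deviations from the group mean had correlations of 0.33, 0.09, -0.17 and 0.05. Those of unequal number ran from -0.33 to 0.39. With 4 libraries per group, these values cannot decide whether libraries were paired. With replicate number as a block, 0 members and 14 of all genes were called. With the longest annotated transcript as length, the 20 highest members were the same 20. For members of few reads, depth leaves wide intervals.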
